A study of Mus musculus with 6 samples.

Results

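The lectin-like receptors of natural killer (NK) cells were followed through lung cells of mice with bleomycin-induced fibrosis, as 9 genes of the 32285 in the count tables. They were chosen by name: the Ly49 genes Klra3, Klra4, Klra7, Klra8 and Klra9, the CD94/NKG2 genes Klrd1, Klrc1 and Klrk1, and Klre1. Transcripts were counted as unique molecular identifiers (UMIs, tags that mark single captured RNA molecules). A gene is called detected in a cell with at least 1 UMI, and the mouse is the unit of every comparison.

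All 6 mice were male, 12 weeks old, on a C57BL/6 background, and carried human exons of CTLA4 in place of the mouse sequence (hCTLA4), so that the human antibody ipilimumab can bind. All received bleomycin, a DNA-damaging drug that scars the lung, in 2 oropharyngeal doses of 1.25 U per kg, given 2 weeks apart. From day 21 after the second dose, 3 mice were given ipilimumab, which blocks CTLA4, at 5 mg per kg and 3 were given an IgG1 isotype control, both 2 times a week for 4.5 weeks. There was no group without bleomycin, so every value below is from an injured lung. The right lung of each mouse was digested, and its cells, which the labels describe as lung cells with no sort, formed 1 library per mouse (10x Genomics, 3' end).

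Ly49 receptors are homodimers on mouse NK cells, and many of them bind classical MHC class I molecules. Klra3 (Ly49C), Klra7 (Ly49G) and Klra9 (Ly49I) encode inhibitory receptors, whereas Klra4 (Ly49D) and Klra8 (Ly49H) encode activating receptors that signal through the adaptor DAP12 (Tyrobp), and Ly49H recognizes a protein of mouse cytomegalovirus. CD94 (Klrd1) pairs with NKG2A (Klrc1) into an inhibitory receptor for the MHC class Ib molecule Qa-1 (H2-T23). NKG2D (Klrk1) is an activating receptor for stress-induced ligands and signals through DAP10 (Hcst) and, in mice, also DAP12, and Klre1 encodes a lectin-like chain that pairs with Klri1 or Klri2. Each NK cell carries only some of the Ly49 receptors, in a combination that differs from cell to cell, and some T cells with memory or innate-like traits use the same families.

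The 9 genes lie within 759.67 kb of chromosome 6 in the NK gene complex (GRCm38, GENCODE vM21). Klre1 (chr6:129577905-129585827) and Klrd1 (chr6:129591782-129598775) are on the plus strand. Klrk1 (chr6:129610323-129623864) and Klrc1 (chr6:129666015-129678973) are on the minus strand, and these 4 genes span 101 kb. The Ly49 genes form a second block on the minus strand, in the order Klra4 (chr6:130043731-130067271), Klra8 (chr6:130115226-130129898), Klra9 (chr6:130178675-130193112), Klra7 (chr6:130218605-130233322) and Klra3 (chr6:130323289-130337574). The files' symbols match ENSMUSG00000067591 (Klra3), ENSMUSG00000079852 (Klra4), ENSMUSG00000067599 (Klra7), ENSMUSG00000089727 (Klra8), ENSMUSG00000033024 (Klra9), ENSMUSG00000030167 (Klrc1), ENSMUSG00000030165 (Klrd1), ENSMUSG00000030149 (Klrk1) and ENSMUSG00000050241 (Klre1).

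Because the results below turn on which Ly49 genes are found in the same cell, the stretch upstream of each is shown: 100 bases that end with the longest run present in the upstream windows of all 5 genes (RefSeq promoters, GRCm38.p6, minus strand, written 5′ to 3′). Capitals mark that run.
Klra3: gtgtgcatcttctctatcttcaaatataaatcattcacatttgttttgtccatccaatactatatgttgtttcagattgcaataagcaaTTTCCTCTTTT
Klra4: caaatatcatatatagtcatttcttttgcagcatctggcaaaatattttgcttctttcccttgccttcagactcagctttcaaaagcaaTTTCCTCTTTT
Klra7: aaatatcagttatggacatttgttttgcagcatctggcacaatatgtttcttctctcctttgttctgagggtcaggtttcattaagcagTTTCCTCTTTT
Klra8: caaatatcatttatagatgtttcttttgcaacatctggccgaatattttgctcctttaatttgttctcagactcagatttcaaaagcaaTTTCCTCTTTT
Klra9: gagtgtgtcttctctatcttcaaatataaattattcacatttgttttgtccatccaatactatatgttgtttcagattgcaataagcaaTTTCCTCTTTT
The stretches are chr6:130337635-130337734 (Klra3), chr6:130067340-130067439 (Klra4), chr6:130233401-130233500 (Klra7), chr6:130129968-130130067 (Klra8) and chr6:130193140-130193239 (Klra9). They end between 8 and 78 bases before the RefSeq start site. The run TTTCCTCTTTT was searched in the 250 bases upstream of each of 32851 RefSeq start sites on both strands and was present in 42 windows, or 0.128%, including those of 8 of 11 Klra genes. The run was taken from the 5 genes shown, so their windows hold it by choice. The other Klra genes with it were Klra2, Klra6 and Klra17. By these 100 bases the 5 genes fall into 2 types. Klra3 and Klra9 were 96% identical, Klra4 and Klra8 85%, Klra4 and Klra7 79.2%, and Klra7 and Klra8 78.2%, while the other 6 pairs were 48.8% to 53.7% identical. The coding sequences group differently: Klra3 and Klra9 were 95.9%, Klra8 and Klra9 91.9% and Klra3 and Klra8 90.5% identical, and the other 7 pairs were 74.0% to 79.2%. A match of letters is a description and was not tested as a binding site.

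Likeness between genes limits what 3' reads can tell apart. Of the stretches of 90 bases (a typical read) in the last 500 bases of their transcripts, 5.15% in Klra3, 6.57% in Klra7, 12.4% in Klra9 and 21.9% in Klrc1 were also in another gene (Klra10, Klra9, Klra3, Klra8 and pseudogenes for the Ly49 genes, Klrc2 for Klrc1). For Klra4, Klra8, Klrd1, Klrk1 and Klre1 the share was 0. The values of Klra3, Klra7, Klra9 and Klrc1 are therefore less certain than the others.

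Cells were gated by UMIs. NK cells had at least 1 UMI of Ncr1 or Klrb1c (NKp46 and NK1.1, markers of NK cells in this strain) and none of Cd3e or Cd3d, and were 1490 of 24261 cells. Conventional Cd8 T cells were 2030, and unconventional T cells, with a UMI of Il23r or Zbtb16 (genes of innate-like and interleukin-17 T cells), were 433. The 6 mice gave 202, 271 and 211 NK cells under IgG1 and 208, 340 and 258 under ipilimumab, with a median of 6117 UMIs per cell. NK cells were 4.64%, 6.41% and 6.46% of all cells under IgG1 and 4.78%, 8.49% and 6.35% under ipilimumab (exact two-sided permutation test, p = 0.6), so the groups overlapped.

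The list of 10 NK markers includes Ncr1 and Klrb1c, by which the gate was drawn, so the label was checked on the other 8, among them Gzma, Prf1, Eomes and Tyrobp. Each of the 8 was found in at least 10% of the gated cells. Their summed level was 12286 to 15049 CPM (counts scaled to a library of 1e6 UMIs) over the 6 mice, against 872 to 1519 CPM in Cd8 T cells. Cd8a, Cd8b1 and Cd4 stayed at or under 6.20 CPM in summed level. A list of 6 T cell genes, which includes Cd3e and Cd3d, was higher, with 2 of the 6 in at least 10% of NK cells. Its sum was 323 to 388 CPM under IgG1 and 261 to 307 CPM under ipilimumab, without overlap. In Cd8 T cells it was 2355 to 2762 CPM. UMIs of markers of B, myeloid, endothelial, epithelial and fibroblast cells made up 0.169% to 0.266% of NK UMIs under IgG1 and 0.221%, 0.520% and 0.634% under ipilimumab. Alveolar macrophage markers ranged from 93.6 to 303 CPM in NK cells of IgG1 mice and from 315 to 4318 CPM under ipilimumab, and epithelial markers from 5.58 to 21.1 and from 34.3 to 1555 CPM. Monocyte and macrophage markers ranged from 950 to 1669 and from 1113 to 2731 CPM, with overlap. Endothelial markers ranged from 57.3 to 63.2 and from 72.5 to 240.1 CPM. Neutrophil markers went the other way, from 245.8 to 568 CPM under IgG1 and from 24.4 to 220.6 CPM under ipilimumab. Ipilimumab replicate 1 stood apart with 22056 barcodes of at least 100 UMIs, where the other libraries had 4834 to 6230, and 6.25% of its NK cells held 1% or more UMIs of other lineages, against 1.42% to 3.49% elsewhere. Any 2 libraries shared 0 to 8 cell barcodes.

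By detection in NK cells the receptors ran in order from Klre1, Klrd1, Klrk1, Klra8, Klra9, Klra4, Klra7 and Klrc1 to Klra3. Klre1, Klrd1 and Klrk1 had a UMI in 90.7 ± 1.97%, 87.8 ± 3.98% and 83.6 ± 4.57% of NK cells (mean ± SD, n = 6 mice). Klra8, Klra9 and Klra4 were found in 66.7 ± 5.55%, 65.4 ± 3.22% and 52.3 ± 3.80%, and Klra7, Klrc1 and Klra3 in 44.8 ± 3.66%, 39.6 ± 2.31% and 35.8 ± 1.53%. Neighbours in this order overlapped over the mice, as Klra4 (46.2% to 56.9%) and Klra7 (39.9% to 48.3%) did, except Klrk1 with Klra8 and Klra9 with Klra4. In B cells, which lack these receptors and had a similar depth (median 5604 UMIs), the same shares were 0.0896% to 0.657%. They are taken as a background, and its source was not tested. Cells thinned to 2000 UMIs, which left 1456 of the 1490, gave lower shares, from 68.6% for Klre1 to 22.6% for Klra3. Shares rank the chance of catching a transcript and not the level of one gene against another.

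Among NK cells with a UMI of the gene, the median count was 9 UMIs for Klra4 and 8 for Klra8, and 2 to 4 for the other 7 genes. Klra4 had 2 or more UMIs in 50.3% of NK cells and at least 1 in 52.4%, so few NK cells rested on a single UMI of it. For Klra8 these shares were 61.4% and 66.9%. For Klrc1 and Klra3, 29.1% and 28.1% of NK cells had 2 or more UMIs.

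Outside NK cells the 9 genes parted by family. The NK gate held 91.9% of all UMIs of Klra8 and 91.8% of those of Klra4 in the lung, 87.8% for Klra9, 79.9% for Klre1, 79.8% for Klra7 and 78.2% for Klra3. It held 59.9% of the UMIs of Klrk1, 52.2% of Klrc1 and 46.8% of Klrd1. Cd8 T cells carried most of the remainder for Klrd1 (31.2%) and Klrc1 (28.9%).

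In Cd8 T cells (median 9856 UMIs) Klrd1 had a UMI in 67.4 ± 2.54% of cells, Klrk1 in 15.5 ± 4.93%, Klrc1 in 15.1 ± 2.67% and Klre1 in 10.2 ± 4.91% (n = 6 mice). The 5 Ly49 genes were found in 0.599% to 3.29%, and 7.26 ± 2.27% of Cd8 T cells held any of them. These shares lie above those of B cells, which are shallower. The Cd8 T gate did not leave out cells with Ncr1 or Klrb1c. The part of such cells, or of doublets of an NK and a T cell, in these shares was not tested.

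The splits of the T cell gates by Ccl5 and Il23r, and the class of T cells with Ncr1 or Klrb1c, were chosen after earlier values were seen. Ccl5 is a chemokine gene of effector and memory Cd8 T cells. Cd8 T cells with Ccl5 (877 cells) had Klrc1 in 33.6 ± 6.35%, Klrk1 in 33.7 ± 8.86% and Klre1 in 22.0 ± 7.74%. In the 1153 without Ccl5, these shares were 1.05 ± 0.991%, 1.30 ± 0.815% and 0.718 ± 0.324%, and no mouse of one class overlapped the other. Klrd1 differed far less, with 73.1 ± 4.22% and 63.1 ± 2.64%. Among the Ly49 genes, Klra7 was the highest with Ccl5 (7.28%, from 3.25% to 12.3% by mouse), and Klra9 was found in 0 of the 1153 cells without it, which allows a share of up to 0.260%.

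Unconventional T cells (median 9668 UMIs) were led by Klrk1, with a UMI in 38.6 ± 3.07%, followed by Klrd1 with 22.5 ± 7.30%, Klrc1 with 14.8 ± 8.4% and Klre1 with 12.1 ± 6.45%. The 215 cells with Il23r had Klrk1 in 34.1 ± 6.38% and each of the other 8 genes in at most 2.81%. The 218 cells with Zbtb16 and no Il23r had Klrk1 in 42.6 ± 4.57%, Klrd1 in 39.3 ± 8.81%, Klrc1 in 23.8 ± 11.2%, Klra9 in 15.6 ± 6.42% and Klra7 in 10.5 ± 8.53%. Klrk1 overlapped between these classes, while Klrd1 did not, at 0% to 6.90% and 22.2% to 45.2% by mouse.

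T cells with a UMI of Ncr1 or Klrb1c (206 cells), genes that also draw the NK gate, carried the broadest set. They were drawn from all cells with Cd3e or Cd3d, so they can overlap the other T cell gates. Klrd1 was in 83.2 ± 9.05%, Klrk1 in 79.2 ± 6.83%, Klre1 in 66.0 ± 8.14% and Klrc1 in 48.8 ± 11.1%, which overlapped the shares of NK cells mouse by mouse for Klrd1, Klrk1 and Klrc1. Klra9 and Klra7 were in 35.3 ± 9.19% and 33.5 ± 10.9%, and Klra4, Klra8 and Klra3 in 15.1%, 21.8% and 12.1%. The part of doublets of an NK and a T cell in these values was not tested beyond the removal of the highest doublet scores. At least 1 UMI of Cd3e or Cd3d put a cell in this class, and the part of NK cells with a stray UMI was not tested. In Cd4 T cells, 8 of the 9 genes were in at most 2.54% of cells, and Klrd1 was in 7.82%.

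**Figure D1:**
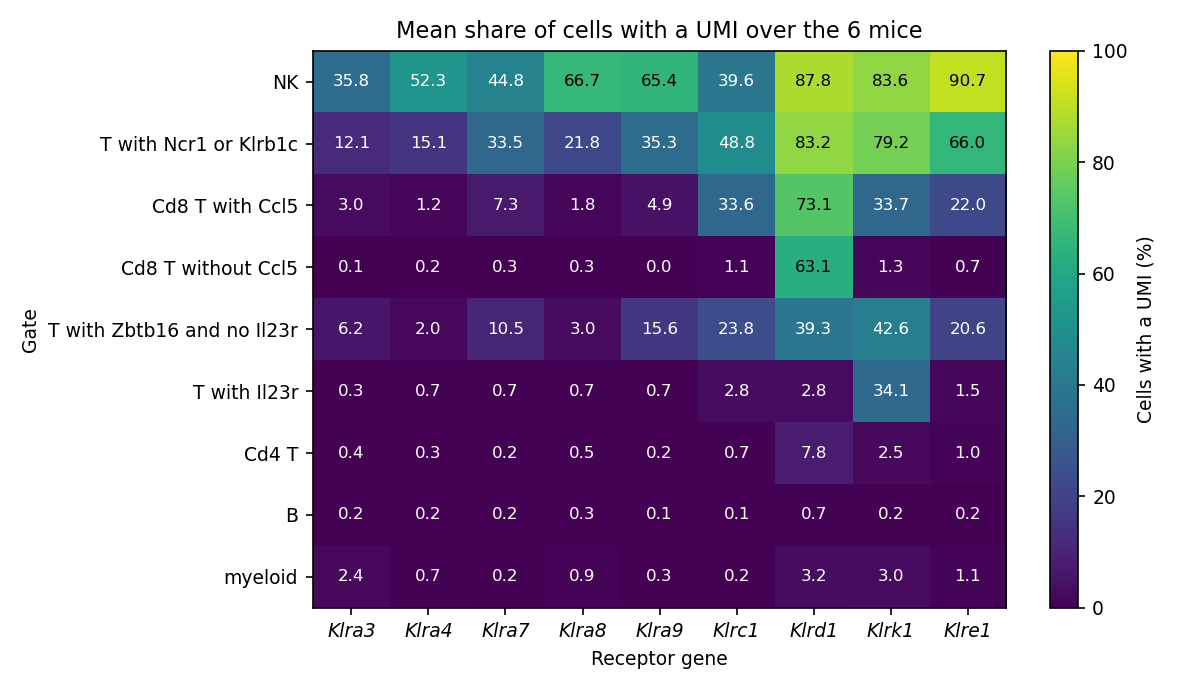
Mean share of cells with a UMI over the 6 mice (%, colour and printed value) for the 9 receptor genes (columns) in 9 gates (rows). Ly49 genes are seen mainly in the NK row and in T cells with Ncr1 or Klrb1c, while Klrd1 reached 63.1% even in Cd8 T cells without Ccl5 and Klrk1 34.1% in T cells with Il23r. The shares are not matched for UMIs per cell, which were fewer in NK cells than in the Cd8 and unconventional T gates.

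The gates were compared within the same mice by edgeR's quasi-likelihood test on UMIs summed per mouse, with mouse as a block and Benjamini-Hochberg adjustment over all genes tested. Calls needed an adjusted p below 0.05 together with a log2 fold change beyond 0.3 in either direction. Of 10079 genes tested, 49.5% were called in either direction and 25.5% higher in NK than in Cd8 T cells. Klra7, Klra9, Klrc1, Klrd1, Klrk1 and Klre1 had counts enough within Cd8 T cells to pass the low-count filter there as well, and each was called higher in NK cells. The log2 fold change was 6.21 for Klra9, 4.87 for Klra7 and 4.24 for Klre1. For Klrk1 it was 3.05, for Klrc1 1.69 and for Klrd1 1.41 (SE 0.0788, adjusted p = 2.30e-08). Klra3, Klra4 and Klra8 passed the filter only through NK cells. They had 74, 50 and 46 UMIs in all Cd8 T cells together, with Klra4 at 0 in IgG1 replicate 1 and Klra8 at 0 in IgG1 replicate 2. Their fitted values, 5.50, 8.23 (SE 0.364) and 8.49 (SE 0.292), depend on a level near 0 in the T cells and are given as a description.

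Against unconventional T cells, 32.8% of 9103 genes were called in either direction and 15.5% higher in NK cells. The same 6 receptors passed the filter within this gate and were called higher in NK cells, with 4.07 for Klre1, 3.81 for Klra9, 3.75 for Klra7, 2.86 for Klrd1, 2.06 for Klrc1 and 1.93 for Klrk1 (SE 0.0937, adjusted p = 1.93e-07). Klra3, Klra4 and Klra8 had 49, 58 and 67 UMIs in all unconventional T cells and again passed only through NK cells. All 3 were at 0 in ipilimumab replicate 2, and Klra4 and Klra8 also in IgG1 replicate 1, so that 4.17, 6.31 (SE 0.479) and 6.28 (SE 0.497) are a description too. By value, among the 6, Klrd1 was nearest to NK cells in Cd8 T cells and Klrk1 in unconventional T cells, and the difference between these differences was not tested. The 12 differences of these 6 receptors kept sign and call when any 1 mouse was left out and when 2 UMIs of Ncr1 or Klrb1c were required.

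Other genes of the complex were read mostly in NK cells. Of 15 named relatives (Klra1, Klra2, Klra5, Klra6, Klra10, Klra17, Klrc2, Klrc3, Klri1, Klri2, Klrb1a, Klrb1b, Klrb1f, Klrg1 and Klrh1), 14 were in the tables and 12 were tested against Cd8 T cells. The 12 were called higher in NK cells, but only 3 of them, Klrg1, Klrc2 and Klra6, passed the low-count filter within the T cells, so the count is a description. Klra6 was higher by 2.13 (SE 0.464, adjusted p = 0.00205). Klrb1a and Klrb1b, of the NKR-P1 family, had 1 and 16 UMIs in all Cd8 T cells, and no fold is given. Against unconventional T cells 8 of 11 were called higher, where again 3 (Klra1, Klrc2 and Klrb1b) passed within the T cells. Klri2, the partner of Klre1, and Klrb1a had 51 and 13 UMIs there.

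Of 10 adaptor and signalling genes, 6 were higher and 1 lower in NK than in Cd8 T cells, where 25.5% of all genes were higher and 49.5% were called in either direction. Within Cd8 T cells 9 of the 10 passed the low-count filter, and 9 within unconventional T cells, so the counts of this list are a description. Tyrobp, the adaptor of Ly49D and Ly49H, and Fcer1g, the common Fc receptor chain, were both higher by 6.09, while Cd247, the CD3 zeta chain, was lower (-1.03, SE 0.0602). Against unconventional T cells, with 15.5% of all genes higher and 32.8% called, 6 were higher and 1 lower, among them Tyrobp (3.70) and Fcer1g (3.51), with a smaller step for Hcst, the adaptor of NKG2D (0.37, SE 0.0964), and Zap70 lower (-0.85). Of 7 ligand genes tested, 3 were higher and 1 lower than in Cd8 T cells, and 2 higher and 1 lower than in unconventional T cells, to be read against the same shares of all genes (49.5% and 32.8% called). The MHC class I gene H2-D1 was higher and the NKG2D ligand gene Raet1e lower in NK cells in both comparisons (0.39 and -0.38 against Cd8 T cells, 0.34 and -0.39 against unconventional T cells).

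Of 14 NK maturation genes, 9 were higher and 3 lower in NK cells in either comparison, beside the same shares of all genes higher (25.5% and 15.5%). The low-count filter was passed by 13 of the 14 within NK cells, 13 within Cd8 T cells and 12 within unconventional T cells. These counts are therefore a description too. The integrin genes Itga2 (CD49b) and Itgam (CD11b) were higher than in Cd8 T cells by 6.47 and 5.99, and Eomes, a T-box factor of NK cells, and Itga2 were higher than in unconventional T cells by 5.35 and 4.27. Cxcr6, a chemokine receptor gene of tissue-resident lymphocytes, was lower in both (-3.14 and -6.83), Tcf7 lower than in Cd8 T cells (-3.12) and Itga1 (CD49a) lower than in unconventional T cells (-2.21). Itgam in Cd8 T cells (57 UMIs) and Eomes in unconventional T cells (34 UMIs) passed the low-count filter only through NK cells, so their values depend on a low level there. Cxcr6 was rare in NK cells, and 0.898% of those with under 1% UMIs of other lineages held it together with Klrd1. The values of Cxcr6 thus depend on a low level in NK cells and are a description.

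The question of the study was what CTLA4 blockade changed, and for these receptors no change in NK cells passed the test. Of 9393 genes tested between ipilimumab and IgG1 by edgeR's quasi-likelihood test, 10 were called (0.106%), all higher under ipilimumab, and none of the 9 receptors was among them. At an unadjusted p under 0.05 there were 864 genes, again without a receptor, and DESeq2 called 53. The receptors' median log2 fold change was -0.13, with 1 of 9 above 0, beside 0.00 over all genes.

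Klra7, the inhibitory Ly49G, had a UMI in 48.0%, 48.3% and 47.4% of NK cells of the IgG1 mice and in 39.9%, 41.2% and 44.2% of those of the ipilimumab mice. The 3 ipilimumab mice lay below the 3 IgG1 mice, with a difference of -6.16 percentage points (exact two-sided permutation test, p = 0.1, the smallest that 3 against 3 mice can give). Its summed level was 287, 309 and 359 CPM (scaled by TMM factors, as are all CPM of the treatment comparison) against 237, 309 and 253 CPM, and here the groups overlapped (log2 fold change -0.25, SE 0.127, edgeR adjusted p = 0.601).

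Klre1 was the other receptor with separate groups, at 92.1%, 93.0% and 91.5% against 87.5%, 90.9% and 89.5%. The difference of -2.87 points (exact permutation test, p = 0.1) turned to 0.37 points when 2 UMIs of Ncr1 or Klrb1c were required. That 2 of 9 receptors had every ipilimumab mouse below every IgG1 mouse compares with 6.52% of the 9393 genes, and 0 of 9 had every one above, as 5.48% of all genes did. With each cell thinned to 2000 UMIs, 0 of the 9 did. Without ipilimumab replicate 1 the differences were -5.24 points for Klra7 and -1.97 for Klre1.

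The activating Ly49 genes overlapped in detection. Klra8 was found in 70.3%, 75.3% and 59.7% of NK cells under IgG1 and 62.5%, 65.6% and 66.7% under ipilimumab, with overlap. Its level was 931, 1051 and 931 CPM against 883, 907 and 714 CPM, without overlap, which was so for 1 of the 9 receptors and in this direction for 6.19% of all genes, while 0 of 9 lay above as 7.47% of all genes did (log2 fold change -0.22, SE 0.110, edgeR adjusted p = 0.607). Klra4 was in 56.9%, 54.6% and 49.8% against 46.2%, 52.9% and 53.1% of cells (log2 fold change of its level -0.13, SE 0.115).

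The remaining inhibitory Ly49 genes overlapped in detection. Klra3 was in 38.6%, 35.4% and 36.0% against 34.1%, 35.9% and 34.9% of NK cells, and Klra9 in 65.3%, 66.4% and 60.7% against 64.4%, 70.6% and 64.7%. Klrc1 was in 36.1%, 39.9% and 43.1% against 39.9%, 40.3% and 38.4%, Klrd1 in 91.1%, 86.3% and 91.0% against 80.8%, 90.3% and 87.2%, and Klrk1 in 84.7%, 79.7% and 90% against 77.9%, 87.1% and 82.2%. For these 5 genes the groups lay inside or across each other, with log2 fold changes of level from -0.24 (Klrk1, SE 0.124) to 0.06 (Klra9, SE 0.133).

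**Figure D2:**
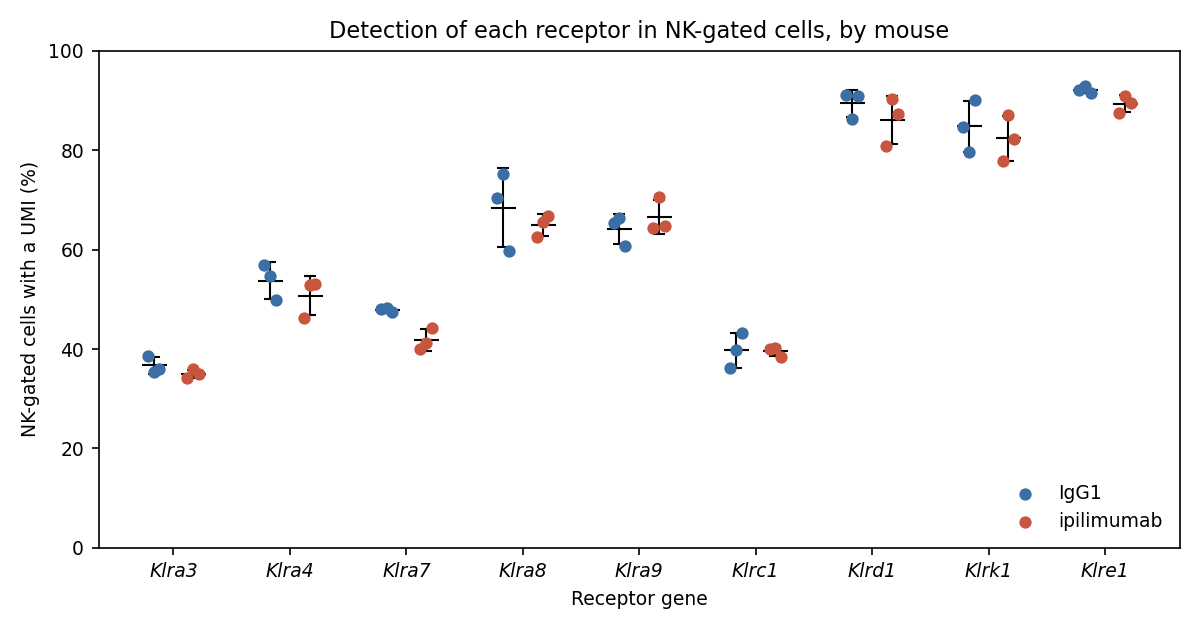
Share of NK cells with a UMI (%) of each receptor gene, 1 point per mouse, for IgG1 (blue, n = 3) and ipilimumab (red, n = 3), with bars for the mean ± SD. The groups are separate for Klra7 and Klre1, at 47.4% to 48.3% against 39.9% to 44.2% and 91.5% to 93.0% against 87.5% to 90.9%, and overlap for the other 7 genes.

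The 10 genes called in NK cells were Car4 (log2 fold change 3.52, SE 0.365), Fcgrt, Fmnl2, Olr1, Plet1, Ctnnd1, Flt1, Actn1, Plekhg1 and App (1.24 to 2.65). Car4 is on the list of alveolar macrophage markers, but its level in endothelial cells was not compared. Flt1 encodes a VEGF receptor of endothelial cells. The summed levels of alveolar macrophage and endothelial markers in NK cells were both higher under ipilimumab, at 315 to 4318 against 93.6 to 303 CPM and at 72.5 to 240.1 against 57.3 to 63.2 CPM, and their part in these calls was not tested beyond the screen that follows. Of all genes, 0 were called when NK cells with 1% or more UMIs of other lineages were left out. Car4 counts towards that 1% and towards the summed macrophage level, so its own call is not independent of either. The count rested on single mice, as it was 0 without ipilimumab replicate 2 or any 1 IgG1 mouse, 25 without ipilimumab replicate 3 and 136 without ipilimumab replicate 1. No receptor was called in any of these fits.

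In T cells the receptors were rarer and their values wider. Of 10212 genes tested in Cd8 T cells and 8083 in unconventional T cells, 0 were called by edgeR (0% each), with 448 and 428 at an unadjusted p under 0.05 and 4 and 7 called by DESeq2. Klra3, Klra4 and Klra8 were too low to be tested in either gate, and none of the other 6 receptors was called. None of these 6 had separate groups in level either, where 5.22% of genes lay below and 4.31% above in Cd8 T cells, and 5.23% and 5.3% in unconventional T cells. Klre1 in Cd8 T cells had 34.5, 15.9 and 19.4 CPM under IgG1 and 65.4, 20.6 and 30.9 CPM under ipilimumab, a log2 fold change of 0.76 (SE 0.384, adjusted p = 0.988) with overlapping groups. It was 0.15 without ipilimumab replicate 1, and it passed (0.75, adjusted p = 0.00197) only where genes of low counts were kept in the edgeR fit.

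Detection in T cells separated the groups for 3 receptors, each on few cells and at the smallest p that 3 mice against 3 allow (exact permutation test, p = 0.1, unadjusted). In Cd8 T cells Klra4 was found in 0%, 0.372% and 0.494% of cells under IgG1 and 0.592%, 0.571% and 1.57% under ipilimumab, on 12 of 2030 cells. Klra8 was found in 0.287%, 0% and 1.23% against 1.48%, 1.43% and 1.57%, on 21 cells. Every ipilimumab mouse thus lay above every IgG1 mouse for 2 of the 9 receptors, where this was so for 2.31% of the 10212 genes tested, a set that does not hold Klra4 or Klra8, and 0 of 9 lay below, where 5.99% of genes did. In B cells the shares of these genes were 0.223% and 0.328%. Cd8 T cells with any of the 5 Ly49 genes and Klrc1 (45 cells) made up 1.43%, 1.12% and 1.73% under IgG1 and 3.55%, 2.57% and 2.82% under ipilimumab, also without overlap (exact permutation test, p = 0.1). Of the receptor classes compared by this test in NK, Cd8 T and unconventional T cells, this was the only one without overlap. The shares of Klrc1 by number of Ly49 genes, given below, were not among the classes tested. No share over all genes can be set beside such a class. In unconventional T cells Klra3 went the other way, with 7.84%, 3.57% and 6.38% under IgG1 and 2.27%, 0% and 2.00% under ipilimumab, on 14 of 433 cells. That was 1 of 9 receptors below, as were 5.96% of 8083 genes tested, and 0 of 9 above, as were 4.07%. Klra3, Klra4 and Klra8 are not among these 8083 genes.

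In unconventional T cells, Klrk1 had 128, 127 and 131 CPM under IgG1 and 151, 122 and 99.1 CPM under ipilimumab (log2 fold change -0.05, SE 0.193). The other 5 tested receptors ranged from -0.98 for Klra9 (SE 0.654) to 0.28 for Klra7 (SE 1.15), errors at which a change of that size was not detectable with 47 to 100 cells per mouse.

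Among the other genes of the pathway, 0 of 13 relatives, 0 of 10 adaptor and signalling genes, 0 of 7 ligand genes and 0 of 13 NK maturation genes were called in NK cells between treatments. Prdm1, which encodes Blimp-1 (-0.53, SE 0.168, edgeR adjusted p = 0.330), and the integrin gene Itga2 (-0.26, adjusted p = 0.493) had an unadjusted p under 0.05. Prdm1 was at 59.6, 46.3 and 53.4 CPM under IgG1 and 37.9, 40.3 and 31.5 CPM under ipilimumab, without overlap, as 6.19% of the 9393 genes tested were in this direction. Itga2 was also without overlap, at 710, 655 and 636 CPM against 631, 544 and 500 CPM. In Cd8 T cells only Zeb2 (0.77) and in unconventional T cells Syk (1.06) and Sh2d1a (-0.78), a SLAM adaptor gene, had such a p, with adjusted p-values of 0.882 to 0.988. Zeb2 overlapped between the groups. Syk lay above and Sh2d1a below in every ipilimumab mouse, as 5.3% and 5.23% of the 8083 genes tested in unconventional T cells did.

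Turning to combinations, most NK cells held several Ly49 genes. None of the 5 was found in 7.36 ± 3.09% of NK cells, 1 in 11.2%, 2 in 21.2%, 3 in 33.5 ± 4.88%, 4 in 22.7% and all 5 in 3.95 ± 1.19% (n = 6 mice). If the genes were found independently at their own shares, 2.10% of cells would hold none, and 3.51 times as many did. The mean number per NK cell was 2.79, 2.80 and 2.54 under IgG1 and 2.47, 2.66 and 2.64 under ipilimumab, so the groups overlapped, with a difference of -0.12. With 2 UMIs of Ncr1 or Klrb1c required, the share with none was 3.74 ± 1.59%, and the difference between treatments -0.01.

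All 32 possible combinations of the 5 genes were seen, each in 5 cells or more. The most frequent was Klra4, Klra7, Klra8 and Klra9 without Klra3, in 141 cells (9.52 ± 2.71% of NK cells, 1.42 times the product of the single shares). Klra4, Klra8 and Klra9 followed with 119 cells (7.68%), then no Ly49 gene with 109 and Klra7, Klra8 and Klra9 with 99.

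Few NK cells lacked both a detected Ly49 gene and Klrc1, as few lacked a Ly49 gene at all. Taken over all depths, Klrc1 was in 44.0 ± 18.9% of NK cells without a Ly49 gene and 39.6 ± 2.31% of all NK cells. In this gate Klrc1 was thus not clearly more frequent where Ly49 genes were missing. Whether fewer cells lacked both than the single shares would give was not tested. The Ly49 genes here include the activating Klra4 and Klra8, and the receptor of Klra8 recognizes a viral protein. Klra8 was the only Ly49 gene found in 29 cells and Klra4 in 9, and 37 cells held these 2 alone. Any Ly49 gene was found in 92.6 ± 3.09%, any Ly49 gene with Klrc1 in 36.6 ± 1.87%, Klrc1 without a Ly49 gene in 2.99 ± 1.02% and neither in 4.37 ± 2.71%. The last share was 0.990%, 2.95% and 4.27% under IgG1 and 9.13%, 5.00% and 3.88% under ipilimumab, highest in ipilimumab replicate 1, and the groups overlapped (exact permutation test, p = 0.2). Klrd1, the partner chain of NKG2A, had a UMI in 92.4 ± 2.89% of NK cells with Klrc1. A UMI of none of the 9 genes was found in 3.28 ± 2.42%.

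Pairs of genes were described by the log2 odds ratio of finding both in a cell, taken per mouse within 3 strata of UMIs per cell, which sets cells of like depth against each other. A value of 0 means that one gene was found at the same odds with and without the other. Cells are not replicates, and no p is given. Of 36 pairs, 20 were above 0 and 4 below 0 in all 6 mice.

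The activating pair Klra4 and Klra8 had the highest value among the 10 Ly49 pairs, at 1.37, 1.66 and 1.35 under IgG1 and 2.03, 1.5 and 1.88 under ipilimumab (1.63 ± 0.28). Klra4 with Klra7 (1.15 ± 0.19) and Klra7 with Klra8 (1.02 ± 0.31) were also above 0 in every mouse, and with 2 UMIs of Ncr1 or Klrb1c required all 3 stayed so, at 1.34, 0.95 and 0.87. Klra3 with Klra8 was above 0 in every mouse too, at a lower value (0.44 ± 0.37, from 0.03 to 0.97). With 2 UMIs required, that pair was above 0 in 3 of 6 mice. Klra3 with Klra7, both inhibitory, was below 0 in all 6 mice, from -1.0 to -0.09 (mean -0.46 ± 0.39). Klra3 with Klra9, the most alike in sequence, took both signs over the mice, from -0.70 to 0.49.

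NKG2A went against a subset of the Ly49 genes. Klrc1 with Klra4 had -1.81, -2.08 and -1.80 under IgG1 and -2.11, -1.98 and -1.95 under ipilimumab, the lowest of the 36 pairs and the least variable (mean -1.96 ± 0.13). Klrc1 with Klra8 (-1.07 ± 0.54) and with Klra7 (-0.81 ± 0.33) were also below 0 in all 6 mice. With Klra9, in contrast, Klrc1 was above 0 in 5 of 6 mice (0.39 ± 0.42), and with Klra3 below 0 in 4 (-0.45 ± 0.67). Both cells with Klrc1 and Klra4 (12.8% of NK cells) and cells with either alone were present, so the pair was uneven and not exclusive.

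Klrd1, Klrk1 and Klre1, which most NK cells carry, went together, at 3.27 ± 0.79 for Klrd1 with Klre1, 3.20 ± 0.85 for Klrk1 with Klre1 and 2.89 ± 1.05 for Klrd1 with Klrk1. These values depended on the gate and were 1.37, 1.54 and 1.63 with 2 UMIs of Ncr1 or Klrb1c. Klrc1 with Klrd1, the chains of one receptor, was 0.81 ± 0.83 and took a mean of -0.14 in the stricter gate. Under that gate 8 of 36 pairs, in place of 20, were above 0 in all mice, and still 4 were below.

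**Figure D3:**
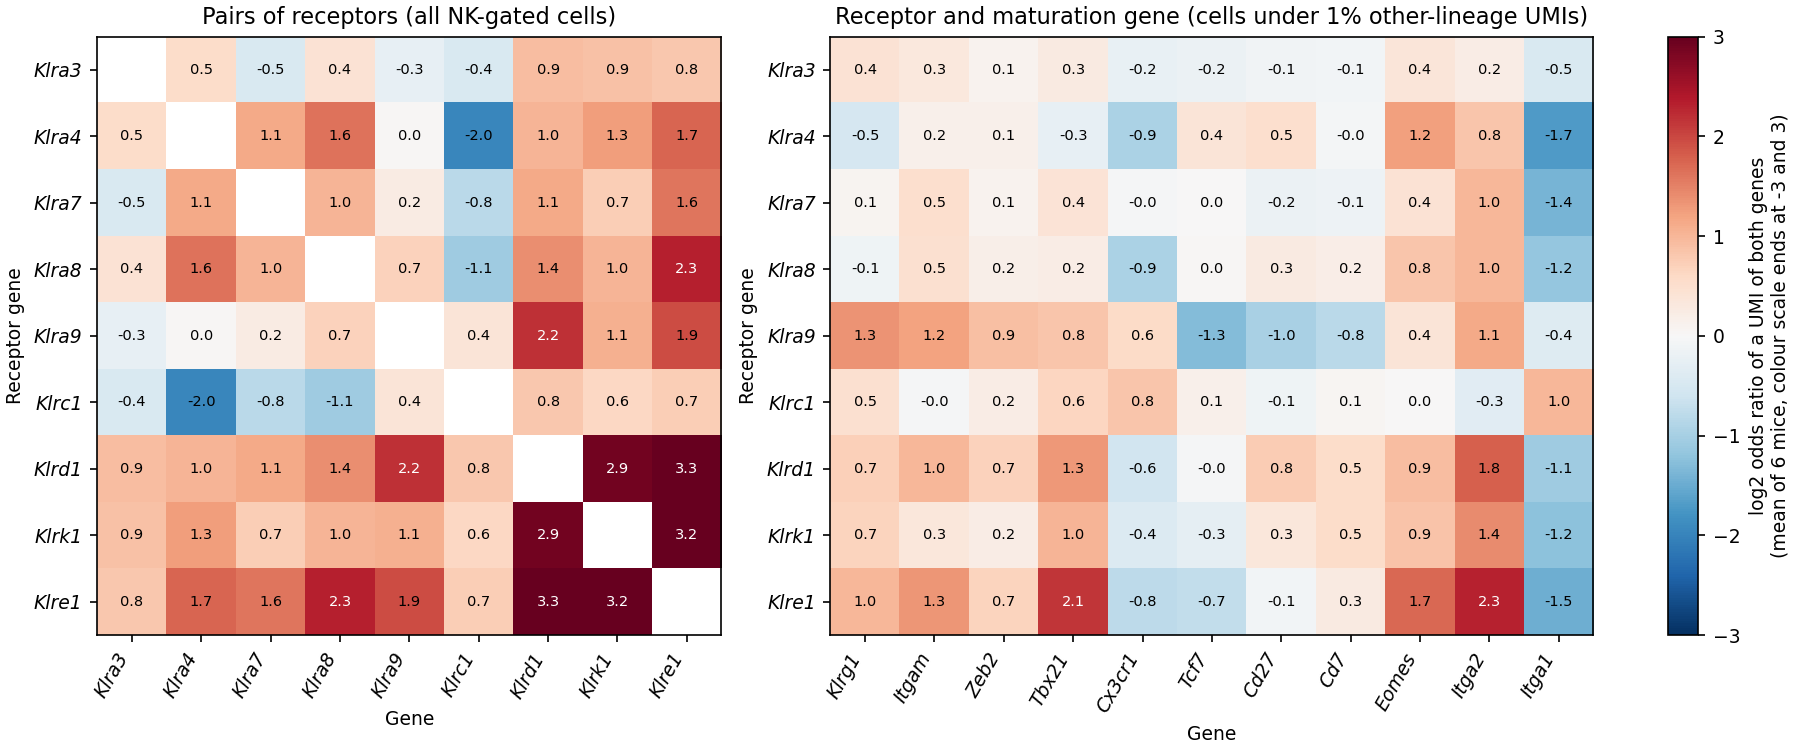
Mean log2 odds ratio over the 6 mice of a UMI of both genes in an NK cell (colour and printed value), for pairs of the 9 receptors (left) and for each receptor with the 11 maturation genes described in the text, in NK cells under 1% UMIs of other lineages (right). The block of Klra4, Klra7 and Klra8 lies at 1.0 to 1.6 and Klrc1 with Klra4 at -2.0, while Klra9 lies at 1.3 with Klrg1, 1.2 with Itgam and -1.3 with Tcf7.

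The number of Ly49 genes went with the detection of Klrc1. A cell with 3 or more holds at least 1 of Klra4, Klra7 and Klra8, each below 0 with Klrc1 in every mouse. The number was therefore not separated from which genes a cell held. Among NK cells with 3 or more Ly49 genes (904 cells), Klrc1 was found in 24.4%, 30.4% and 27.4% under IgG1 and 32%, 30.5% and 29.0% under ipilimumab (28.9 ± 2.73%). With 2 Ly49 genes (312 cells) it was 58.0 ± 6.80%, and with 1 (165 cells) 63.1 ± 8.53%, in a range from 46.8% to 70.2% by mouse. With 0 Ly49 genes (109 cells) it was 47.5 ± 17.7%, too wide to order against 1 or 2. These shares were 76.7%, 50% and 51.9% under IgG1 and 33.9%, 47.6% and 25% under ipilimumab, so every IgG1 mouse lay above every ipilimumab mouse, a difference that was not tested. The groups overlapped both with 2 UMIs of Ncr1 or Klrb1c (76.7% to 100% against 50% to 83.3%) and with the 1% screen (54.2% to 100% against 33.3% to 57.1%).

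The cells without a Ly49 gene were those most affected by the gate. With 2 UMIs of Ncr1 or Klrb1c required, 48 such cells stayed, with Klrc1 in 80.4 ± 18.9%, and the series over 0, 1, 2 and 3 or more genes was 80.4%, 71.8%, 60.5% and 30.2%. The difference between cells with 3 or more and with 0 Ly49 genes was -52.3, -19.6 and -24.5 points under IgG1 and -1.91, -17.1 and 3.98 points under ipilimumab. It was -18.6 points on average and -50.2 points in that gate, where it lay below 0 in all 6 mice (-74.7 to -21.1). The 48 cells are divided over 6 mice and 3 strata, so each mouse's share rests on few cells. In that gate it was 100% in IgG1 replicates 1 and 2.

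**Figure D4:**
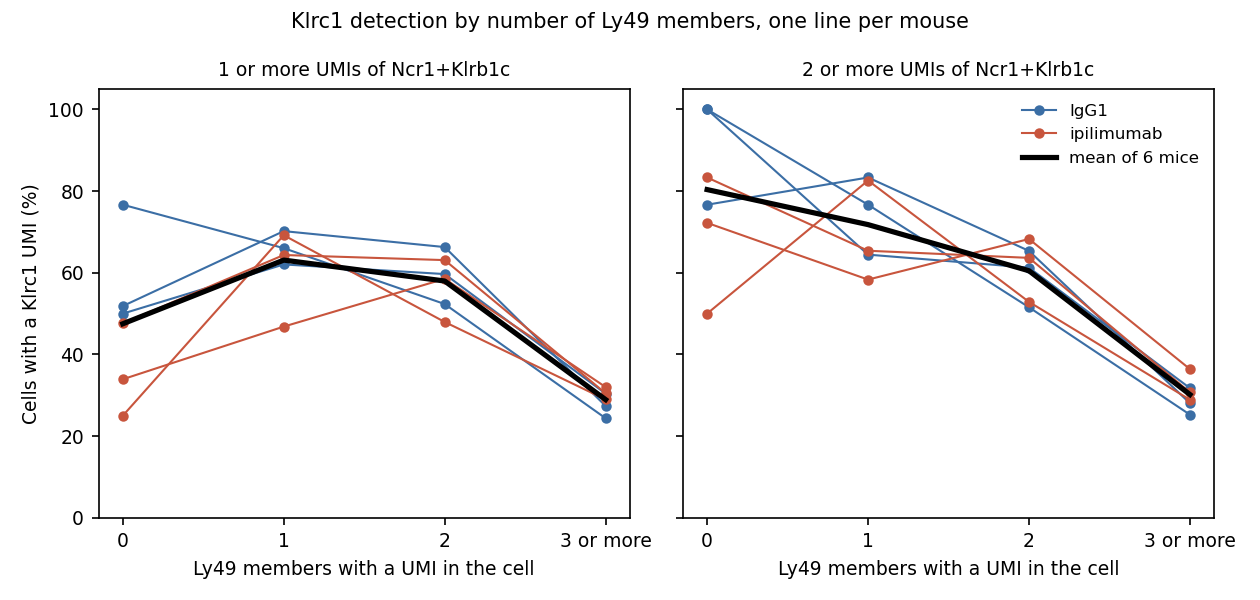
Share of NK cells with a Klrc1 UMI (%, mean over 3 strata of UMIs per cell) against the number of Ly49 genes with a UMI in the cell, 1 line per mouse (IgG1 blue, ipilimumab red) and the mean in black, with 1 (left) or 2 (right) UMIs of Ncr1 or Klrb1c required. In both panels the 6 mice come together at 24.4% to 36.4% for 3 or more Ly49 genes, and they spread from 25% to 100% at 0.

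The pairs were set beside the upstream stretches printed above. Klra4, Klra7 and Klra8, at 78.2% to 85% identity over these 100 bases, made the 3 pairs with the highest odds ratios, 1.02 to 1.63. The 6 pairs at 48.8% to 53.7% identity ranged from -0.46 to 0.68. Among them, Klra3 with Klra8 (52.9% upstream and 90.5% coding identity) was above 0 in all 6 mice. Klra3 and Klra9, at 96%, had -0.26 ± 0.52, and they share part of their 3' sequence. In coding sequence the same 3 pairs were 74.0% to 79.2% identical. With 5 genes the 10 pairs are not independent, and no test was made.

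**Figure D5:**
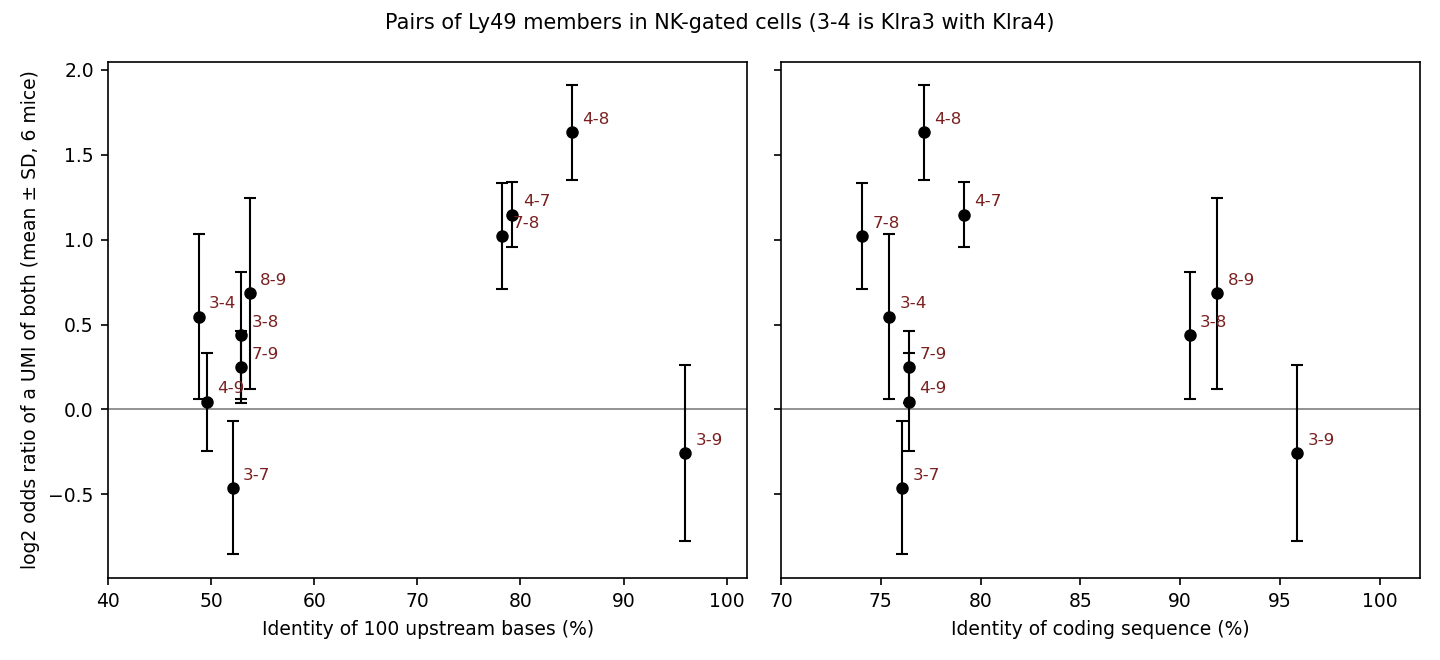
Log2 odds ratio of a UMI of both genes in an NK cell (mean ± SD over 6 mice) for the 10 Ly49 pairs, named by their numbers, against the identity (%) of the 100 upstream bases (left) and of the coding sequence (right). Pairs 4-8, 4-7 and 7-8 lie at 1.02 to 1.63 with 78.2% to 85% upstream identity, and pair 3-9 at -0.26 with 96%.

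Maturation of NK cells in mice runs from Cd27 to Itgam (CD11b) and on to Klrg1, and the receptors differed along these genes. The values are odds ratios as above, in NK cells with under 1% UMIs of other lineages. Klra9 was above 0 in all 6 mice with Klrg1 (1.34 ± 0.60), Itgam (1.22 ± 0.54), Zeb2 (0.91 ± 0.28), Tbx21 (0.82 ± 0.55) and Cx3cr1 (0.59 ± 0.47). It was below 0 in all 6 with Tcf7 (-1.29 ± 0.50), Cd27 (-0.97 ± 0.69) and Cd7 (-0.81 ± 0.36). Tcf7 and Cd27 are genes of less mature NK cells. Itgam was also above 0 in all 6 mice with Klre1 (1.34), Klrd1 (0.99), Klra7 (0.51), Klra8 (0.47) and Klra3 (0.33), as was Zeb2 with Klrd1 (0.70).

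Klra4 had the reverse for some of these genes. It was above 0 in all 6 mice with Eomes (1.22 ± 0.50), Itga2 (0.83 ± 0.41) and Cd27 (0.50 ± 0.37), and below 0 in all 6 with Itga1 (-1.71 ± 0.61), Cx3cr1 (-0.94 ± 0.50) and Klrg1 (-0.51 ± 0.25). Klra7 and Klra8 shared the values with Itga1 (-1.39 and -1.17) and Itga2 (0.99 and 1.0), each with 1 sign in all 6 mice. Klrd1, Klrk1 and Klre1 had the same signs in all 6 mice with Itga1 (-1.06, -1.23 and -1.47) and Itga2 (1.80, 1.43 and 2.32). With Eomes they were also above 0 in all 6 (0.92, 0.86 and 1.72), so these signs were not particular to Ly49 genes. The gate of 2 UMIs of Ncr1 or Klrb1c was not applied to these values. Klrc1 was above 0 in all 6 with Itga1 (0.99 ± 0.62), an integrin gene of tissue-resident NK cells and type 1 innate lymphoid cells. Cells with both Itga1 and Klrc1 were 2.57% of NK cells, so the values with Itga1 rest on few cells, and Itga1 was found in 4.77% of NK cells in all.

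Across 42 sums of UMIs (7 gates in 6 mice), the genes whose log2 level was most like each receptor's among 18908 genes were named by Pearson's r, as a description, since the gates set most of it. Klra3 was nearest to Styk1, Klra4 to Cma1, Klra7 and Klra8 to Adamts14 and Klra9 to Spry2 (r = 0.968 to 0.985). Klri2 was among the 3 nearest genes of Klra3, Klra7, Klra8 and Klra9. Klrc1 and Klre1 were nearest to Klrc2 (r = 0.976 and 0.975), which shares 3' sequence with Klrc1, Klrd1 to Ctsw (0.963) and Klrk1 to Serpinb9 (0.959). Klre1 also had Prf1, the perforin gene, and Klrd1 had Nkg7 and Cst7 among the 3 nearest, all genes of cytotoxic granules.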

How the data were processed

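The deposited values are raw UMI counts for 32285 genes in every barcode, which the authors made with Cell Ranger (7.0.0 in the submitters' processing notes) on the mouse build mm10 and left without normalization or filter. From these counts, cells were called by UMI total or, from 500 UMIs, by a profile unlike the ambient RNA. Cells with fewer than 200 genes, over 10% mitochondrial UMIs or a high doublet score were removed, which left 24261 cells. The libraries held 37666042 to 48612412 UMIs over all barcodes, of which called cells had 78.9% to 93.1%. Further gates were B cells (2 UMIs of Cd79a and Ms4a1 together) and Cd8 T cells (Cd3e or Cd3d with Cd8a or Cd8b1, no Cd4, Il23r or Zbtb16).

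UMIs were summed per mouse and gate and tested with edgeR 4.0.16 (quasi-likelihood, TMM factors, filterByExpr), with DESeq2 1.42.0 as an alternative. The standard error is the log2 fold change over the square root of F. Detection was compared by exact permutation tests over mice. For odds ratios 0.5 was added to each count, and intervals and floors cover counting error only. Genes outside the 9 were named from lists of relatives, adaptors, ligands and maturation genes: between treatments all called genes, and in every comparison the 2 highest and 2 lowest of a list with an unadjusted p under 0.05. Genes that fill a count of 3 outside this rule were named after their values were seen. A gene of the last list is not reported here. The 9 genes and these lists were chosen with earlier results of these data known. The likeness to other genes used log2(CPM + 10). Positions are from GENCODE vM21 and promoters from RefSeq (GRCm38.p6), with all 5 Ly49 genes matched. Replicate numbers name separate mice and pair none, as deviations of mice with the same number correlated at -0.16 to -0.04. Replicates are 3 mice per group.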

Additional observations from a re-analysis of the deposited data

How the results depend on the processing

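No receptor was called between treatments in NK or unconventional T cells under any alternative, and in Cd8 T cells only Klre1 passed, with no filter on low counts. The 12 differences between gates of the 6 receptors tested within T cells kept sign and call throughout. The number of genes called in NK cells (10) was 0 to 136 when 1 mouse was left out, 1 with a replicate block, 53 with DESeq2, 1 with size factors by the median of ratios, 515 with no filter on low counts, 0 with doublets kept, 2 with cells called by UMI total alone, 1 with 2 UMIs of Ncr1 or Klrb1c required, and 0 with cells of 2 or more UMIs, or of 1% or more UMIs, of other lineages left out. The screen at 1% was chosen after seeing the data. In Cd8 T cells (0) it was 0 to 1 with 1 mouse left out, 1 with the replicate block, 4 with DESeq2 and 106 with no filter, and in unconventional T cells (0) it was 0 to 1, 0 with the replicate block, 7 and 62. Mice with the same number did not deviate together, so the block is given here alone, where it also turned 2 signs named below. The cause of these moves was not tested.

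The receptors with separate groups in detection (2) were 2 to 4 with 1 mouse left out, 4 without IgG1 replicate 2 or 3, 0 with thinned cells, 1 with cells called by UMI total alone and 1 with the 1% screen. Pairs above 0 in all mice (20) were 8 with 2 UMIs of Ncr1 or Klrb1c and 13 with the 1% screen. The Klrc1 difference (-18.6 points) was -50.2 with 2 UMIs. The difference in the share of NK cells (0.705 points) was -0.271 to 1.59 with 1 mouse left out, below 0 without ipilimumab replicate 2.

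Signs turned only for values that passed no test. In NK cells the log2 fold change became 0.11 for Klrc1 and 0.011 for Klrd1 with 2 UMIs, 0.068 for Klrc1 with the 1% screen, and 0.13 for Klra3, 0.015 for Klra4, 0.17 for Klrc1 and 0.040 for Klrk1 with the 2-UMI screen. With 1 mouse left out it ranged from -0.11 to 0.12 for Klrc1 and from -0.11 to 0.17 for Klra9. Differences in detection became 2.15, 0.478, 1.11 and 0.369 points for Klrc1, Klrd1, Klrk1 and Klre1 with 2 UMIs, 1.60, 1.72 and 0.421 for Klra3, Klrc1 and Klrk1 by UMI total alone, 0.321 for Klrc1 with the 1% screen, 5.75, 0.576 and 2.77 for Klra3, Klrd1 and Klrk1 with the 2-UMI screen, and 2.51 for Klrk1 in thinned cells. With 1 mouse left out they ranged from -1.97 to 1.53 for Klrc1 and from -4.98 to 0.19 for Klrk1. In unconventional T cells the log2 fold change became -0.51 for Klre1 with Trdc in the gate, 0.16 for Klrd1 and 0.0020 for Klrk1 with doublets kept, and -0.44 for Klra7 and -0.079 for Klre1 with the replicate block. With 1 mouse left out it ranged from -1.92 to 0.97 for Klra7, from -0.46 to 0.16 for Klrd1, from -0.22 to 0.10 for Klrk1 and from -0.71 to 0.60 for Klre1, and in Cd8 T cells from -0.81 to 0.92 for Klra7, from -0.047 to 0.36 for Klrc1 and from -0.054 to 0.20 for Klrd1.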
